A study of Mus musculus with 2 samples.

Results

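The epidermal growth factor (EGF) family of secreted ligands, the ErbB receptors that bind them, and the intracellular receptor inhibitor Errfi1 were examined in primary mouse keratinocytes. The 10 genes were taken by name: the ligands Areg, Ereg, Epgn, Btc, Hbegf and Tgfa, the receptors Egfr, Erbb2 and Erbb3, and Errfi1. A gene was read through the probe sets, groups of short array probes, that carry its symbol and no other. By that rule 9 of the 10 genes had 21 probe sets, among 18193 genes and 45037 probe sets in all. Areg was not analysed here because no probe set carried its symbol alone in the annotation used.

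The data are 2 Affymetrix expression arrays with 1 keratinocyte culture each, so no test and no replicate error could be computed. The MED1-null-labelled culture came from newborn C57BL/6 mice called MED1epi-/-, which carried floxed Med1 alleles and Cre recombinase under the keratin 5 promoter, a promoter active in basal keratinocytes. The control culture came from newborn C57BL/6 mice titled MED1flox/flox and described elsewhere in the labels as wild-type. Both cultures were grown from trypsinised epidermis on collagen in the same medium, and the sources used here do not give the number of animals behind each. MED1 belongs to Mediator, which joins transcription factors to RNA polymerase II. Med1 itself read higher where the deletion was labelled: its brightest probe set gave 1039 on the MED1-null-labelled array and 462.7 on the control array, 2.24-fold higher. The other 3 Med1 probe sets measured on both arrays were higher too, with log2 ratios from 0.55 to 1.57 over all 4. Further Med1 probe sets, measured on the MED1-null-labelled array alone, read 182.7 and 112.4 there, against 40.6 and 13.8 on the control array. The last was measured on neither. Which exons were deleted is not stated in the sources used here, so these probe sets do not check the label, and directions are given by the label.

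In skin, EGF family ligands are made by keratinocytes as membrane proteins, cut free by ADAM proteases, and act on the same or neighbouring keratinocytes. A ligand-bound receptor pairs with another ErbB receptor and signals through the RAS and ERK kinases to growth, migration and survival, and ERK activity in turn induces several of the ligands. Errfi1, also called MIG6, binds the receptor kinase domain and blocks it.

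Most of these genes read slightly higher on the MED1-null-labelled array, and none differed by 1.5-fold by its brightest probe set. Of the 9 measured genes, 8 had a log2 ratio above 0, against 57.1% of all 11621 measured genes. Their median log2 ratio was 0.28, against 0.06 for all measured genes, of which the middle 50% lay between -0.18 and 0.28. With a lowess curve of ratio on signal removed, 7 members were above 0, against 51.1% of 11626 measured genes. No member was at least 2-fold higher (1.63% of all measured genes) or at least 2-fold lower (2.23%). None was at least 1.5-fold higher (7.80%) or at least 1.5-fold lower (7.32%). The only spread that could be measured, that among probe sets of 1 gene, had an SD of 0.31 log2 units when pooled across 4916 genes. Egfr, Erbb2 and Ereg were higher by more than that SD, which held for 22.8% of all measured genes, and no member was lower by more than it (16.6%). Measured here means at or above a signal of 67.7 on either array, the median of all probe sets, to which lower values were raised before log2 was taken.

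**Figure D1:**
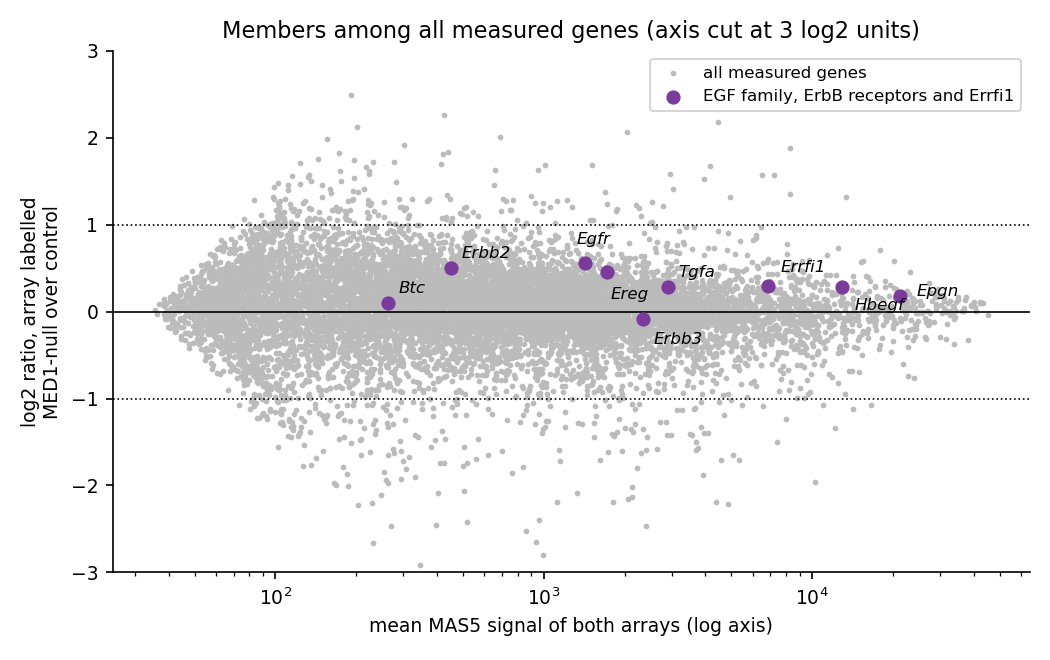
Log2 ratio of the MED1-null-labelled array over the control array (vertical axis) against the mean MAS5 signal of both arrays (horizontal, log axis), 1 point per measured gene, with dotted lines at 2-fold. The 9 purple members lie within 2-fold and all but Erbb3 lie above 0. 6 genes beyond 3 log2 units are not drawn.

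The ligands were considered first. Ereg, which encodes epiregulin, a ligand of EGFR and ERBB4, had the largest ligand ratio by the probe set with the highest signal: 1982 on the MED1-null-labelled array and 1446 on the control array, a log2 ratio of 0.46 (1.37-fold). Epgn, which encodes epigen, a ligand of EGFR, read 22529 on the MED1-null-labelled array and 19973 on the control array (log2 ratio 0.17). Both genes have a single probe set, so no second reading bears on either value.

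Hbegf, heparin-binding EGF-like growth factor, has a role in keratinocyte migration during wound closure. Its 2 probe sets read 14192 and 4084 on the MED1-null-labelled array, against 11697 and 3704 on the control array. Both were higher, with log2 ratios of 0.28 and 0.14, and both were smaller than the spread between probe sets.

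Tgfa, which encodes transforming growth factor alpha, a keratinocyte autocrine ligand whose loss gives mice wavy hair, had 3 probe sets that did not go the same way. They read 3185, 519.8 and 442.9 on the MED1-null-labelled array, against 2624, 329.8 and 474.7 on the control array. The log2 ratios were 0.28, 0.66 and -0.10, so that only the middle probe set passed 1.5-fold, at 1.58-fold higher. That probe set carries the suffix that marks probes shared by several transcripts, and the 3 were designed from the same cDNA sequence.

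Btc, which encodes betacellulin, a ligand of EGFR and ERBB4, read 271.1 and 89.7 on the MED1-null-labelled array, against 253.7 and 67.7 on the control array. The log2 ratios were 0.10 and 0.41, the larger from a probe set that stood at the floor on the control array. The log2 ratio of the brighter probe set was -0.02 once the lowess curve was removed.

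**Figure D2:**
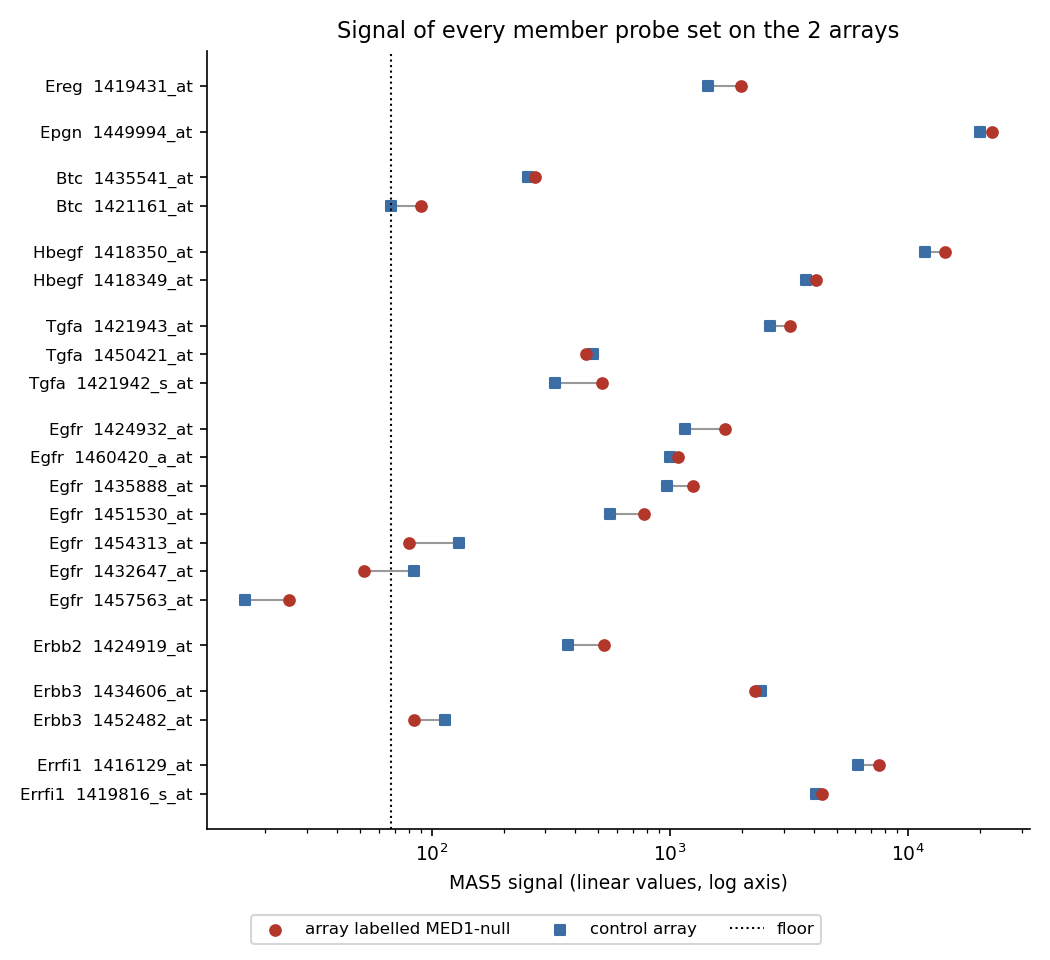
MAS5 signal (horizontal, log axis) of each of the 21 member probe sets, 1 line per probe set, with a red circle for the MED1-null-labelled array and a blue square for the control array. Circles lie to the right of squares for most ligand probe sets and to the left for both Erbb3 probe sets. The dotted line is the floor of 67.7, and signals compare within a line, not between lines.

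Among the receptors, Egfr, the receptor of all of these ligands, gave the largest ratio and the widest disagreement between probe sets. The 4 with the highest signals read 1698, 1246, 1082 and 779.9 on the MED1-null-labelled array, against 1150, 973.4, 1004 and 557.2 on the control array. All 4 were higher, with log2 ratios of 0.56, 0.36, 0.11 and 0.49. The other 3 probe sets lay near or below the floor.

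Of those 3 dim Egfr probe sets, a pair was designed from a single cDNA and went the other way. That pair read 80.6 and 51.8 on the MED1-null-labelled array, against 130.5 and 83.9 on the control array. The first had a log2 ratio of -0.70 (1.62-fold lower), and the second, below the floor on the MED1-null-labelled array, was at least 1.24-fold lower. The last probe set was below the floor at 25.1 on the MED1-null-labelled array and 16.4 on the control array. The sources used here do not give the part of the transcript that each probe set reads. The mean log2 ratio over the 6 Egfr probe sets that reached the floor was 0.08, compared with 0.56 for the brightest.

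Erbb2 encodes the receptor with no known ligand, the preferred partner of the other ErbB receptors. Its single probe set read 527.6 on the MED1-null-labelled array and 373.0 on the control array, a log2 ratio of 0.50 (1.41-fold). With a higher floor, the 75th percentile of all signals (434.6), the control reading falls below the floor and the log2 ratio became a bound of at least 0.28.

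Erbb3, a neuregulin receptor with little kinase activity of its own, was the 1 member with a ratio below 0. Its 2 probe sets read 2274 and 84.4 on the MED1-null-labelled array, against 2407 and 113.5 on the control array. The log2 ratios were -0.08 and -0.43, both below 0. Melanocytes also make ErbB3, and all 8 melanocyte markers reached the floor on both arrays. Their summed signal was 19507 on the MED1-null-labelled array and 25056 on the control array. By the brightest probe set 6 of them were below 0 and 2 above, from -1.58 for Kit to 0.25 for Tyr (57.1% of all measured genes were above 0). The probe sets of Tyr ran from -1.26 to 0.25. Of 3 Schwann cell markers on the array, Ngfr reached the floor on the control array alone (157.7, against 13.6 on the MED1-null-labelled array). S100b and Cdh19 reached it on neither. The part of melanocyte or Schwann cell RNA in the Erbb3 signal was not tested. In RNA from a whole culture, fewer cells of a type and less RNA per cell cannot be told apart.

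Errfi1, the inhibitor, read 7534 and 4323 on the MED1-null-labelled array, against 6158 and 4090 on the control array. Both probe sets were higher, with log2 ratios of 0.29 and 0.08, and both stayed within the spread between probe sets.

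Across roles, the 5 measured ligands had log2 ratios from 0.10 to 0.46 and the 3 receptors from -0.08 to 0.56, so the ranges overlapped. Of the 19 member probe sets measured on both arrays, 15 were higher and 4 lower. By gene, 57.1% of all measured genes were above 0. All 20821 probe sets measured on both arrays had a median log2 ratio of 0.06. Among the members, 1 Tgfa probe set was at least 1.5-fold higher (7.80% of all measured genes) and 1 Egfr probe set at least 1.5-fold lower (7.32%). Of the 6 members with several probe sets measured on both arrays, Egfr and Tgfa were the ones whose probe sets disagreed in direction.

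**Figure D3:**
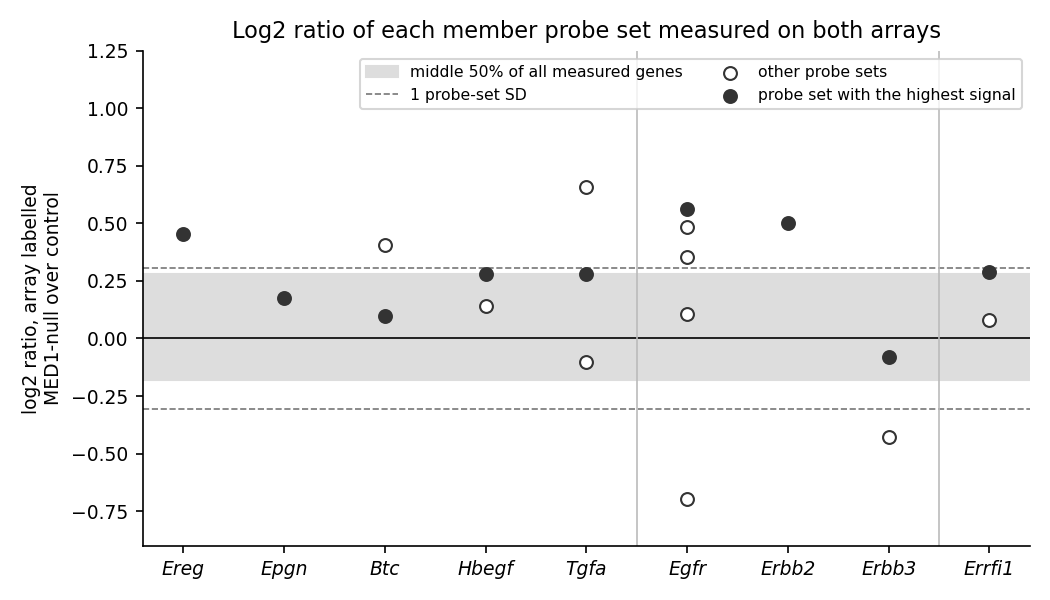
Log2 ratio of the MED1-null-labelled array over the control array for the 19 member probe sets measured on both arrays. Filled points mark each gene's brightest probe set, dashed lines mark 1 probe-set SD (0.31) and the grey band the middle 50% of all measured genes. Ereg, Egfr and Erbb2 have filled points above the upper dashed line, and Egfr spans -0.70 to 0.56.

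**Figure D4:**
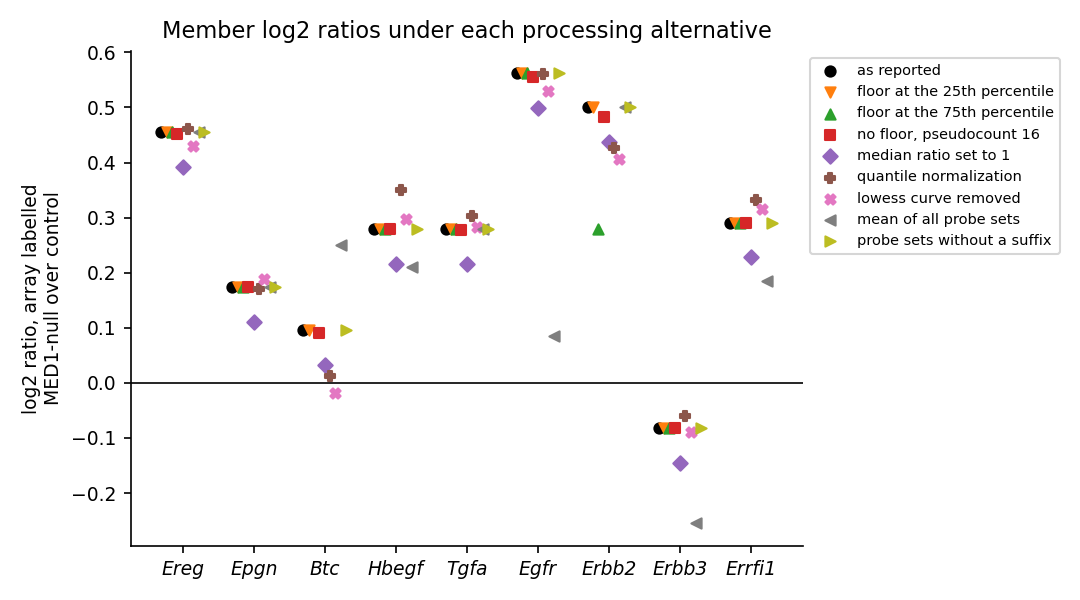
Log2 ratio of the MED1-null-labelled array over the control array for each member by its brightest probe set (black circles, as reported) and under 8 processing alternatives. Erbb3 lies below 0 under each of them, Btc falls to -0.02 with the lowess curve removed, and Egfr falls to 0.08 with the mean of all probe sets.

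Other genes of the family and pathway were read from lists taken by function. Among 6 further family genes, Nrg1, which encodes a ligand of ErbB3 and ErbB4, read 750.4 on the MED1-null-labelled array and 572.6 on the control array (log2 ratio 0.39). Nrg4 read 54.3, below the floor, on the MED1-null-labelled array and 78.1 on the control array, at least 1.15-fold lower. Egf read 41.1 on the MED1-null-labelled array and 43.9 on the control array, and Erbb4, the remaining receptor gene, read 3.9 on the MED1-null-labelled array and 2.4 on the control array. These 2 genes, Nrg2 and Nrg3 were below the floor on both arrays.

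Genes that shed the ligands or control shedding had members on both sides. Of 12 listed, 11 were measured, 4 above 0 and 7 below, with a median log2 ratio of -0.13 (57.1% of all measured genes were above 0). The 1 gene at least 2-fold lower (2.23% of all measured genes) was Adam12, a protease able to release Hbegf, at 195.4 on the MED1-null-labelled array and 652.0 on the control array, 3.34-fold lower. Both of its probe sets were lower, with log2 ratios of -2.33 and -1.74. Adam17, the main protease for Tgfa, Areg and Ereg, read 1517 on the MED1-null-labelled array and 1408 on the control array, a log2 ratio of 0.11. Timp3, an inhibitor of ADAM17, read 198.3 on the MED1-null-labelled array and 139.9 on the control array (log2 ratio 0.50), and all 4 of its probe sets were higher. Frmd8 and Rhbdf1, whose products help bring ADAM17 to the cell surface, had log2 ratios of -0.40 and 0.31.

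Fibroblasts express Adam12, and 5 of 6 measured fibroblast markers had log2 ratios below 0 (57.1% of all measured genes were above 0). Of those 5 markers, Col3a1, Dcn and Twist2 passed the floor on the control array alone, so their direction was fixed by the floor. Of 8 fibroblast markers, 3 reached the floor on the MED1-null-labelled array and 6 on the control array, and their summed signal was 1395 on the MED1-null-labelled array and 3263 on the control array. Most of that sum was Vim, which other cells also express, at 979.7 on the MED1-null-labelled array and 2602 on the control array. Pdgfra, which reached the floor on both arrays, had a log2 ratio of -0.31. The collagen gene Col1a2 went the other way, at 115.3 on the MED1-null-labelled array and 80.3 on the control array. Col1a1 was below the floor on both arrays. The part of fibroblast RNA in the Adam12 difference was not tested.

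The adaptors and kinases next to the receptor lay on both sides of 0. Of 27 listed, 22 were measured, 14 above 0 and 8 below (57.1% of all measured genes were above 0), with a median log2 ratio of 0.13. Past 1.5-fold by the brightest probe set there was 1 higher gene (7.80%) and 1 lower gene (7.32%). Sos1, which loads RAS with GTP, was 1.60-fold higher by its brightest probe set, but its probe sets ran from -0.37 to 0.68. Pik3cb, a catalytic subunit of phosphoinositide 3-kinase, read 713.5 on the MED1-null-labelled array and 1163 on the control array (log2 ratio -0.70). Grb2, the adaptor that joins receptor to SOS, read 1443 on the MED1-null-labelled array and 1960 on the control array (log2 ratio -0.44). The adaptor gene Nck1 had a log2 ratio of -0.49 by its brightest probe set and 0.10 by the other.

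Negative regulators of the receptors also lay on both sides of 0. All 19 listed genes were measured, with 9 above 0 and 10 below (57.1% of all measured genes were above 0) and a median log2 ratio of -0.06. None was at least 1.5-fold higher (7.80%) or lower (7.32%) by its brightest probe set. Spry1, a RAS and ERK antagonist, read 500.5 on the MED1-null-labelled array and 347.4 on the control array (log2 ratio 0.53), while its relative Spry4 read 79.5 on the MED1-null-labelled array and 103.2 on the control array (log2 ratio -0.38). Lrig3, a membrane protein of a family that acts on ErbB receptors, had a log2 ratio of 0.34. Sh3kbp1, which links the ubiquitin ligase CBL to endocytosis, ran from -0.40 to 1.16 over its 4 probe sets. Other genes of the list also had probe sets past 1.5-fold. Those of Cbl ran from 0.28 to 1.16, of Spred2 from 0.16 to 0.73 and of Spred1 from -0.69 to 0.25.

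Genes of receptor endocytosis and sorting had a median log2 ratio of -0.27, against 0.06 for all measured genes. Of 14 measured, 10 had a log2 ratio below 0 and 4 above (57.1% of all measured genes were above 0). By the brightest probe set, none was at least 1.5-fold higher (7.80%) or lower (7.32%). Other probe sets passed 1.5-fold: Stam ran from -0.30 to 0.94, Eps15 from -0.28 to 0.80, Stam2 from -0.59 to 0.01 and Rab7 from -0.63 to -0.46. Rab5a, the small GTPase of early endosomes, read 8660 on the MED1-null-labelled array and 12191 on the control array (log2 ratio -0.49). Rab7, which directs receptors towards lysosomes, read 7764 on the MED1-null-labelled array and 10660 on the control array (log2 ratio -0.46). Rab11a, of the recycling endosome, read 10772 on the MED1-null-labelled array and 14365 on the control array (log2 ratio -0.42), but the other of its probe sets had a log2 ratio of 0.21. Eps15l1, a clathrin-coat adaptor, had a log2 ratio of -0.45 by its brightest probe set and -0.01 by the other that reached the floor. The median stayed between -0.33 and -0.23 under all 8 alternatives tried.

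Genes induced by ERK, the kinase at the end of the pathway, had a median log2 ratio of 0.28, close to that of the 9 measured members. All 12 listed were measured, 9 above 0 and 3 below (57.1% of all measured genes were above 0). By the brightest probe set, 3 were at least 1.5-fold higher (7.80% of all measured genes) and 2 at least 1.5-fold lower (7.32%). Egr1, an immediate early transcription factor gene, read 2313 on the MED1-null-labelled array and 1173 on the control array (log2 ratio 0.98). Dusp6, an ERK phosphatase, read 3594 on the MED1-null-labelled array and 2133 on the control array (log2 ratio 0.75). The ETS factor gene Etv4 read 475.9 on the MED1-null-labelled array and 309.3 on the control array (log2 ratio 0.62). Dusp4, another ERK phosphatase, read 90.8 on the MED1-null-labelled array and 207.8 on the control array (log2 ratio -1.19), and Etv5, the close relative of Etv4, had a log2 ratio of -0.61. The list thus held its largest differences in both directions.

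**Figure D5:**
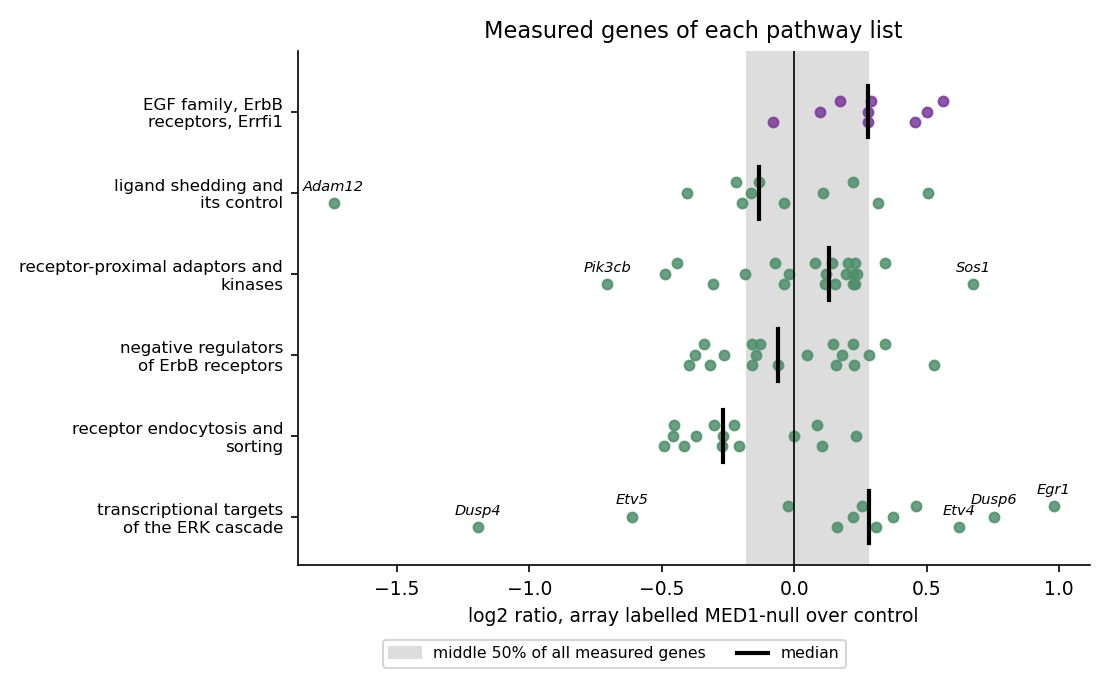
Log2 ratio of the MED1-null-labelled array over the control array for each measured gene of the members and 5 pathway lists, with the median as a black bar and the middle 50% of all measured genes in grey. Genes at least 1.5-fold apart are named. The members and ERK targets have medians of 0.28, and the endocytosis genes one of -0.27.

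Keratinocyte markers were present in both cultures. Of 9 basal markers on the array, 8 reached the floor on both arrays, Krt5 and Krt14 among them, and Krt15 reached it on neither. Their median log2 ratio was 0.21. Of 6 markers of differentiated keratinocytes, Krt1 was below the floor on both arrays. The 5 measured had log2 ratios above 0 (57.1% of all measured genes), with a median of 0.80. That median was the value of Lor, whose other probe set that reached the floor had a log2 ratio of 0.03. The summed signal of the 6 was 8300 on the MED1-null-labelled array and 4776 on the control array. Most of that sum was Krtdap, at 6870 on the MED1-null-labelled array and 3916 on the control array. The part of differentiated keratinocytes in the EGF family values was not tested. Of 6 immune markers, Lyz2 reached the floor on both arrays (121.5 on the MED1-null-labelled array and 104.0 on the control array), Cd74 on the control array alone (71.9), and the others, Ptprc among them, on neither. Of 4 endothelial markers, Kdr reached it on the control array alone (80.5), and Pecam1, Cdh5 and Tek on neither. The cultures also differed in sex-linked RNA: Xist read 55.7 on the MED1-null-labelled array and 5461 on the control array, and Y-linked Eif2s3y read 2164 on the MED1-null-labelled array and 4.2 on the control array. Sex-linked differences and the genotype label cannot be told apart here.

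Promoter sequences were read from RefSeq (GRCm38.p6) as 8 windows for 7 of the 10 genes, from 250 bases before to 50 after an annotated start. Ereg and Erbb3 had no entry in the promoter set used, and Hbegf was not looked for. Windows are shown for the receptors with the largest ratios, for Epgn, and for the Errfi1 start with the most matches, all genes that read higher on the MED1-null-labelled array. Capitals mark matches, on either strand, to the letters TATAAA of the TATA box, GGGCGG of the GC box, CCAAT of the CCAAT box, TGACGTCA of the full cAMP response element and TGACG of its core, TGANTCA of the AP-1 site, and AGGTCA of a single nuclear receptor element. A full cAMP response element holds its core once on each strand.
Egfr, chr11:16751953-16752252, plus strand: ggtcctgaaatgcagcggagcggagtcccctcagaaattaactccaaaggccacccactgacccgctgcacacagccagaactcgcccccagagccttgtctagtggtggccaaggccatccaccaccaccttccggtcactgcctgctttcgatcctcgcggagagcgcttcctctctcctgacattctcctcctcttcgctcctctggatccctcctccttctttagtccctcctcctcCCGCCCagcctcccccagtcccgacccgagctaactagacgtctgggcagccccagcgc
Erbb2, chr11:98412234-98412533, plus strand: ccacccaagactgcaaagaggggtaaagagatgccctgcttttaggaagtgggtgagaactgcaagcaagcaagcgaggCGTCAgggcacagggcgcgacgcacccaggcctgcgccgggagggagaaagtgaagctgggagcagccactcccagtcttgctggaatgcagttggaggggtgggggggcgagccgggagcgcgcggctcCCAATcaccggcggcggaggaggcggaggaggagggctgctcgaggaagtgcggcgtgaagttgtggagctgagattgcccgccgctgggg
Epgn, chr5:91027267-91027566, plus strand: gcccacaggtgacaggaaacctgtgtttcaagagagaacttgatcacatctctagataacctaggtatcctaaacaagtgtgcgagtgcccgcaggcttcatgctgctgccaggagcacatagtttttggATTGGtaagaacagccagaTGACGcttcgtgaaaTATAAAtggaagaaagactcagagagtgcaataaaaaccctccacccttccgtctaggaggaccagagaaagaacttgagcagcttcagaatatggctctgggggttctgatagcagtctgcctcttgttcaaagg
Errfi1, chr4:150854820-150855119, plus strand: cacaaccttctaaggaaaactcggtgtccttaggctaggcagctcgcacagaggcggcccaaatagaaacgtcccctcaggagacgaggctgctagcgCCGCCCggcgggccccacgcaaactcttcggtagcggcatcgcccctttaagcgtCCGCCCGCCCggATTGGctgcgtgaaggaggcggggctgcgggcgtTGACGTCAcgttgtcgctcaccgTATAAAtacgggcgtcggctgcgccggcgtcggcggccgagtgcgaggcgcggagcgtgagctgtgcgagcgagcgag

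No motif was common to all of these windows. Erbb2, Epgn and Errfi1 each held a CCAAT box and a core cAMP element. Epgn and Errfi1 both held a TATA box, and Egfr and Errfi1 both held a GC box. Counted from the start site to the first base of the match, Egfr held a GC box at -9, and Erbb2 a CCAAT box at -41 and a core cAMP element at -171. Epgn held a TATA box at -86, with a core cAMP element at -101 and a CCAAT box at -120. Errfi1 held a TATA box at -28, a full cAMP response element at -51, a CCAAT box at -85, and GC boxes at -93, -97 and -152.

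Over the 8 windows read, the full cAMP response element was found in 2, those of Areg and Errfi1, and in 1.80% of 32544 RefSeq promoter windows of this length. TATAAA was found in 3 of 8 and 13.6%, GGGCGG in 4 of 8 and 35.9%, CCAAT in 3 of 8 and 37.4%, and TGACG in 5 of 8 and 20.9%. AGGTCA was found in 1 of 8, in the other Errfi1 window, and 16.2%. TGANTCA was found in none of the 8 and in 7.79% of all windows. A match is a run of letters in a window, not a bound site.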

How the data were processed

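RNA from 2 primary keratinocyte cultures, 1 labelled MED1-null and 1 control, was hybridised to 1 Affymetrix mouse expression array each. The deposited values are linear signal intensities, 1 for each probe set, which the authors made with MAS5, per the submitters' processing notes (version not given in the sources used here). Each array's mean after trimming 2% at each end was 500.0, from the values. MAS5 subtracts mismatch signal, so low values are noisy. Values under the pooled median of the probe sets other than the 64 controls, 67.7, were raised to it before log2 was taken. GEO's annotation of the platform gave 34945 probe sets a single symbol, 932 several symbols and 9160 no symbol, and 34741 were found in the RefSeq table by Entrez ID. Each gene was represented by its probe set with the highest mean signal. The counting was tested on simulated data, with less noise than the spread between probe sets and with changed genes well above the floor. That test does not bear on genes near the floor.

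With 1 array per group there is no test, and the number of arrays limits precision. With 2 arrays, a gene's pattern is a single ratio, so no genes were ranked for likeness. The members, lists and alternatives were chosen with earlier results of these data known. All members were named. From each list the 4 measured genes farthest from a ratio of 1 were named, with any other gene at least 2-fold apart, plus Adam17, Egf, Erbb4 and Med1. Nrg2, Nrg3, Etv5, Stam, Stam2, Eps15, Cbl, Spred1, Spred2 and the markers named singly were added after their values were seen. The alternatives tried were floors of 18.1 (25th percentile) and 434.6 (75th), no floor with a pseudocount of 16, rescaling by the median ratio, by quantiles or by a lowess curve (fraction 0.3), the mean of all probe sets, probe sets without a suffix in their ID, and a 1.5-fold threshold. Python 3.11.15, numpy 2.4.6, pandas 2.3.3, scipy 1.17.1 and statsmodels 0.14.6 were used.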

Additional observations from a re-analysis of the deposited data

How the results depend on the processing

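No member was 2-fold apart under any alternative, or 1.5-fold apart at the lower threshold. The median log2 ratio of the members lay between 0.21 and 0.33 over all settings. Ereg, Epgn, Hbegf, Tgfa, Egfr, Erbb2 and Errfi1 stayed above 0 and Erbb3 below 0 in all 9 settings, and Btc turned below 0 with the lowess curve removed (-0.02). Egfr depended most on the choice of probe set, at 0.08 for the mean over its probe sets. The median of the 19 negative regulators was 0.090 with the mean of all probe sets, the 1 setting in which it was above 0, and -0.13 with the lowess curve removed. The median of the adaptors and kinases was 0.042 with the mean of all probe sets. The cause of these moves was not tested. For the further family genes the median was 0.39 with the higher floor, where Nrg1 alone was measured, and turned below 0 with the lower floor (-0.10), where dimmer genes of the list were counted. Of the member log2 ratios recomputed under the alternatives, that of Egfr was the only one to move by more than the probe-set SD of 0.31. List medians were held to that SD divided by the square root of the number of genes, and the counts of members did not move. No paired analysis was possible because each group has 1 array. Signals near the floor, such as those of the dim Egfr, Btc and Erbb3 probe sets, are limited by background.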

Other observations

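The chromosomal neighbours of the members were read after the members' values had been seen. Epgn, Ereg, Areg and Btc are 4 successive protein-coding genes on mouse chromosome 5 in the RefSeq table. The gene next to Epgn, Mthfd2l, an enzyme of folate metabolism, read 1031 on the MED1-null-labelled array and 750.7 on the control array by its brightest probe set, a log2 ratio of 0.46 that stands beside 0.46 for Ereg. The 4 probe sets of Mthfd2l ran from -0.49 to 0.52. On the other side of the ligands, Parm1 read 125.7 on the MED1-null-labelled array and 80.6 on the control array (log2 ratio 0.64), and Rchy1 had a log2 ratio of 0.19. Cxcl2, a chemokine gene beyond Mthfd2l, had one of 0.05.

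Erbb2 and Med1 are near neighbours on mouse chromosome 11, with 8 annotated protein-coding genes between them. Of these, 3 reached the floor on both arrays, and they had log2 ratios above 0, as did 57.1% of all measured genes. Cdk12, which encodes a kinase of RNA polymerase II and lies next to Med1, read 240.5 on the MED1-null-labelled array and 177.4 on the control array (log2 ratio 0.44), and its 4 measured probe sets ran from 0.03 to 0.44. Stard3, a cholesterol carrier, had a log2 ratio of 0.09, and Pnmt, an enzyme of adrenaline synthesis, one of 0.25. Neurod2, Tcap and Pgap3 passed the floor on the MED1-null-labelled array alone, at 75.4 to 81.1, so their direction was fixed by the floor. Ppp1r1b was below the floor on both arrays, at 48.5 on the MED1-null-labelled array and 59.3 on the control array, and Gm33099 had no probe set of its own symbol. The 2 genes on each outer side had ratios below 0: Mien1 and Grb7, on the far side of Erbb2, had log2 ratios of -0.23 and -0.28, and Fbxl20 and Stac2, on the far side of Med1, had -0.29 and -0.50. Probe sets of Fbxl20 ran from -0.29 to 0.16. With 1 array per group these are descriptions of 2 cultures.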
